A study of Mus musculus with 12 samples.

Results

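The cytosolic ribosomal protein genes were examined in the small intestine of mice given the bile acid tauroursodeoxycholic acid (TUDCA) or vehicle after an allogeneic transplant. The members were the probe sets whose platform annotation names a single gene with a symbol that starts with Rpl or Rps and a digit, or is Rpsa, Rplp0, Rplp1 or Rplp2, leaving out the Rps6k kinases and names that contain -ps or -rs. This gave 58 probe sets for 58 genes, out of 23991 probe sets on the arrays. The 58 comprise 25 genes of the large subunit, 20 of the small subunit, the 3 genes of the P stalk, 7 tissue-restricted or variant paralogues, and 3 genes that carry such a symbol without encoding a standard subunit: Rps19bp1, which encodes a protein that binds Rps19, Rps23rg1, a retrocopy of Rps23, and Rpl32l, an Rpl32-like copy. Another 25 probe sets name a ribosomal protein together with another gene, often a pseudogene, and their genes are not reported by name. Among genes named only in that way are Rpl10, Rpl13a, Rpl23, Rpl39 and Rps6.

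TUDCA-treated mice were wild-type BALB/c recipients that had been irradiated over the whole body, had received bone marrow and T cells of C57BL/6N donors, and were injected into the peritoneum each day with 200 mg/kg TUDCA. Vehicle-treated mice had the same strain, genotype, irradiation and graft and were injected with an equal volume (200 µl) of vehicle, so both groups carry the donor T cells that cause graft-versus-host disease, and no mouse without a graft was part of the comparison. The whole small intestine was taken on day 14 after transplantation, and RNA of each sample was hybridised to 1 array, 6 per group. Age and sex of the mice are not given in the sources used here. Samples carry either low numbers (2 TUDCA and 4 vehicle arrays) or high numbers (4 TUDCA and 2 vehicle arrays), a split whose meaning is not stated, and treatment was compared within these number ranges. The p-values take each array as a separate mouse, and if the samples were not separate mice, they measure only the spread between samples.

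The description field of the labels names CXCL12-abundant reticular cells, a stromal cell of bone marrow, whereas the source and tissue fields name small intestine. The absorptive enterocyte markers had mean log2 values of 12.12 ± 0.05 for Vil1 and 13.11 ± 0.09 for Fabp2 under TUDCA, and 12.23 ± 0.07 for Vil1 and 13.27 ± 0.16 for Fabp2 under vehicle (SD, n = 6 each). The reticular cell genes Cxcl12 and Lepr were at 7.70 ± 0.29 and 6.44 ± 0.18 under TUDCA and 7.72 ± 0.30 and 6.64 ± 0.24 under vehicle (SD, n = 6 each). The 19 absorptive enterocyte markers had a median signal of 11.87 (5.26 to 13.46), beside 5.93 for the median of all probe sets and 13.47 for the highest. The 10 reticular cell markers had a median of 6.32 (4.55 to 8.50). Enterocyte genes thus gave signal near the top of the arrays, as the source and tissue fields imply. Since the values come from different probes, the share of reticular cells cannot be read from them. Array medians of all probe sets lay between 5.9 and 5.95, and pairwise correlations of arrays between 0.984 and 0.993. All values below are log2 values of the deposited, normalised signal, and a difference is TUDCA minus vehicle on that scale. Levels of different probe sets are not comparable with each other, since each has its own probes.

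The ribosome is made of a small subunit, which reads the mRNA, and a large subunit, which joins amino acids, and each holds a set of ribosomal proteins around ribosomal RNA. In mammals the mRNAs of these proteins carry a terminal oligopyrimidine (TOP) tract, a stretch of C and T letters at the very start of the transcript, through which mTORC1 and the RNA-binding protein LARP1 regulate their translation together, and the genes are also under the control of Myc. Intestinal crypts renew the epithelium continuously and depend on ribosome production, and loss of balance in ribosomal proteins can stabilise p53, because free Rpl5 and Rpl11 bind its inhibitor Mdm2. Many ribosomal protein genes have processed pseudogenes of nearly the same sequence, so array signal for a member may include signal of such copies.

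The start regions of 6 members are shown, because they hold the ends of the range of differences described below: the 3 genes with the highest and the 3 with the lowest difference among members with a single RefSeq start site. Each stretch runs from 100 bases before the annotated start to its first 20 transcribed bases (RefSeq, GRCm38.p6). Capitals mark the letters CCGGAAG (core of sites of the ETS family), AAGATGG (core of sites of the factor YY1) and CTTTCC (pyrimidine letters). They also mark CACGTG (the E-box of Myc and its relatives) and TATAAA (the TATA box). Each was searched on both strands, so GGAAAG in capitals is CTTTCC on the other strand and holds no pyrimidines in the transcribed direction.
Rps27 (chr3:90213629-90213748, minus strand): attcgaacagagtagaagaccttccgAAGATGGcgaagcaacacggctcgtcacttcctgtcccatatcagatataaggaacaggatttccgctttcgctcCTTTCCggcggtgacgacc
Rpl27a (chr7:109519095-109519214, plus strand): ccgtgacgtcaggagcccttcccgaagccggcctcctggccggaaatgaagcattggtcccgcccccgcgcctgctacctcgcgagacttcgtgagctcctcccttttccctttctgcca
Rps16 (chr7:28350589-28350708, plus strand): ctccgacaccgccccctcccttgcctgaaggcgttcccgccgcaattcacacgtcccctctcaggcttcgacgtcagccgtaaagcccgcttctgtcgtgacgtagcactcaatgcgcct
Rpl10l (chr12:66284382-66284501, minus strand): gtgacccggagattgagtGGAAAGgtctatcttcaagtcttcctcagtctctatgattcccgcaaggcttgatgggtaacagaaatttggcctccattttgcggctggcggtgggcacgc
Rpl6 (chr5:121204401-121204520, plus strand): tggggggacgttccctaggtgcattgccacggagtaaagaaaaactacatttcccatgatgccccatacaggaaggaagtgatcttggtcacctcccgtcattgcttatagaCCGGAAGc
Rpl39l (chr16:10170128-10170247, plus strand): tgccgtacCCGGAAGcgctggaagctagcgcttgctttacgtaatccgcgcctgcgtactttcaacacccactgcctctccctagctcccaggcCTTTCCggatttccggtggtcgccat

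Promoter entries were matched for 46 of the 58 genes, and each window ran from 250 bases before to 50 after a start. CCGGAAG was found for 20 of the 46 genes (43.5%), against 9.93% of all 27025 genes with an entry. CTTTCC was found for 24 of 46 (52.2%), against 29.3% of all genes. It was counted on either strand anywhere in the window, so this is not a count of TOP tracts. AAGATGG was found for 6 of 46 (13%), against 7.28%, TATAAA for 5 (10.9%), against 15.7%, and CACGTG for 3 (6.52%), against 8.09%. An unbroken run of at least 5 C and T letters within 5 bases of the annotated start, on the transcribed strand, was found for 23 of 46 (50%), against 36.7% of all genes. Of the stretches shown, Rpl27a has such a run of 20 letters and Rps27 of 9, Rpl39l of 7 and Rpl6 of 6, whereas Rps16 and Rpl10l have none there. A match describes letters in a window and not a bound site, and annotated starts can differ from the starts used in the gut.

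The question here is whether treatment moved ribosomal protein transcripts in the diseased gut. Of the 58 ribosomal protein probe sets, 1 rose and none fell at an adjusted p of 0.05 (limma, Benjamini-Hochberg over all probe sets): Rpl8, which encodes a large subunit protein close to the site where peptide bonds form. Over all probe sets, 1.00% rose and 1.52% fell, so 1 of 58 (1.72%) is near the background and is no result about the family. The remaining 57 did not pass. The differences lay to the positive side, with 50 of 58 (86.2%) above 0, against 53.3% of all probe sets. Their median was 0.14, against 0.01 over all probe sets, and the range ran from −0.17 to 0.31. At an unadjusted p of 0.05, 13 of 58 (22.4%) were higher and 1 (1.72%) was lower, against 7.24% and 6.84% of all probe sets. Of the 25 probe sets that name a ribosomal protein together with another gene, 18 (72%) were above 0 and 1 rose at the adjusted threshold. Their median was 0.075, with 0.075 within the low and 0.0036 within the high number range. The members share arrays and vary together, so these counts are not independent observations. In bulk tissue, more cells of a type and more RNA per cell cannot be told apart.

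**Figure D1:**
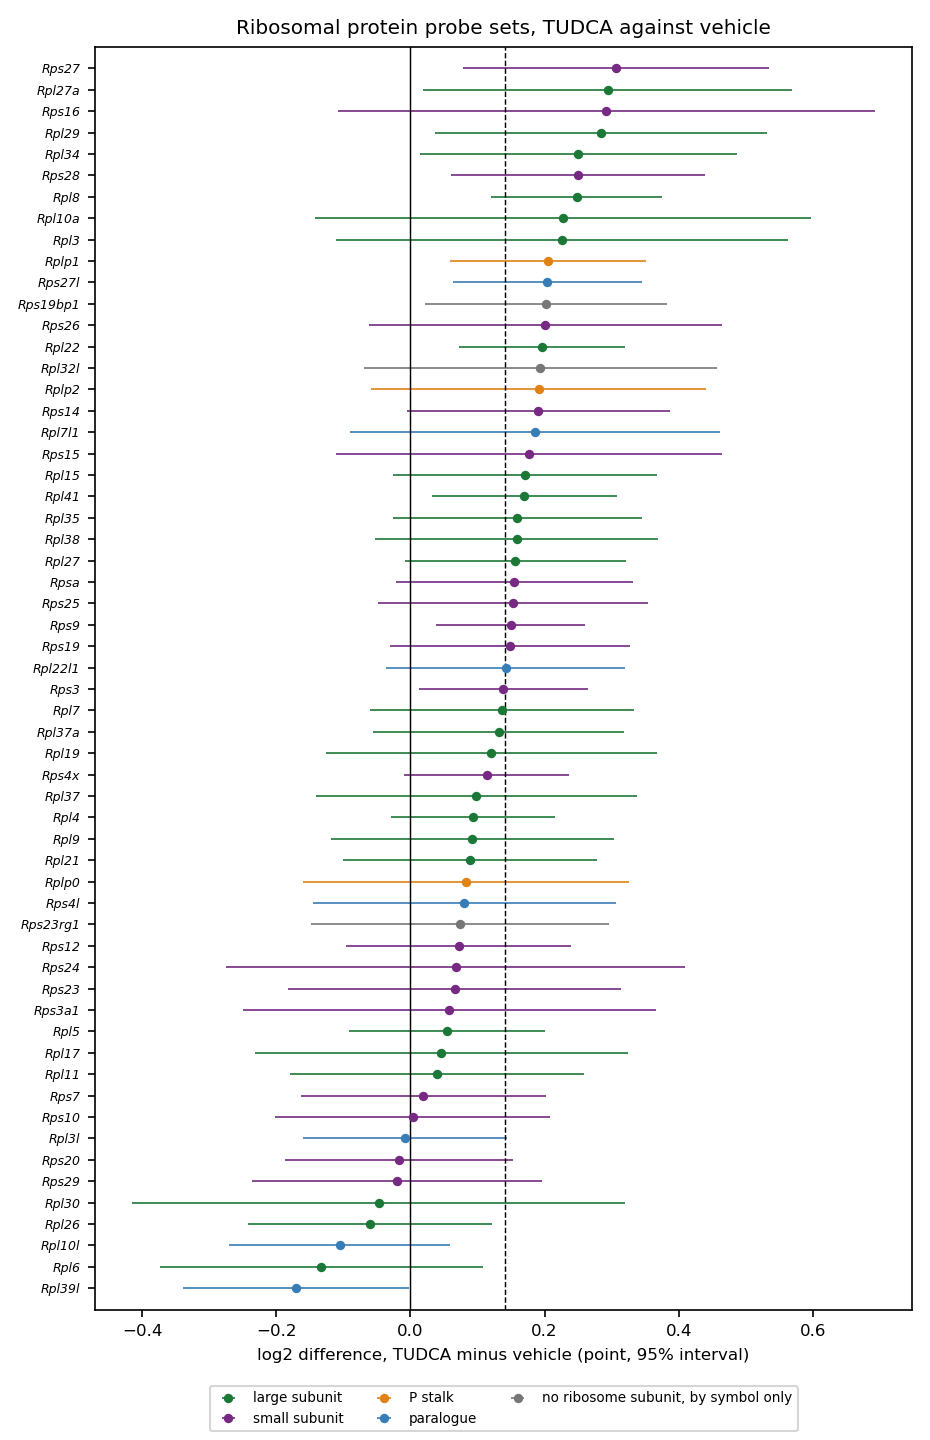
Log2 difference of each of the 58 ribosomal protein probe sets, TUDCA minus vehicle, with its 95% interval from limma; colours mark the class of gene, the solid line is 0 and the dashed line the member median of 0.14. Of the 58 points 50 lie to the right of 0, most intervals span 0, and Rpl8 is the member that passed after adjustment.

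On single arrays, the mean of the 58 members, each centred on its own mean over the 12 arrays, ran from −0.07 through a median of 0.06 to 0.13 under TUDCA, against −0.13, −0.03 and 0.01 under vehicle. The groups overlapped, because TUDCA replicate 3, at −0.07, lay among the vehicle arrays. TUDCA replicates 1 and 2 had the highest means, 0.13 and 0.09, and vehicle replicate 6 the lowest. Compared with the mean of vehicle arrays in their own number range, 48 and 44 of the 58 members were higher in the low-range TUDCA arrays 1 and 2. In the high-range TUDCA arrays 3, 4, 5 and 6 the numbers were 31, 43, 42 and 43. In the same arrays, between 49.7% and 53.6% of all probe sets were higher. The median difference of the members was 0.13 in low-range and 0.12 in high-range arrays, with 48 and 42 of 58 above 0. A total of 35 members (60.3%) were higher within both ranges, against 30.1% of all probe sets. No member, and none of the 23991 probe sets (0.00%), had a treatment effect that differed between the ranges after adjustment in limma. At an unadjusted p of 0.05 the effect differed for 5 members (8.62%), against 7.68% of all probe sets. In a fit that ignores number range, the member median was 0.0919.

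**Figure D2:**
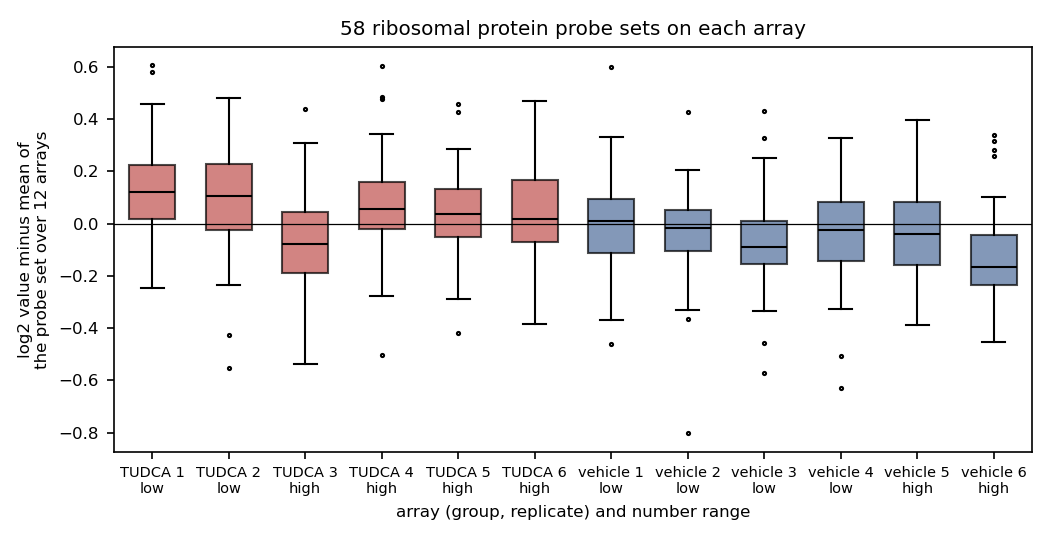
Log2 values of the 58 ribosomal protein probe sets on each array, each minus its own mean over the 12 arrays (box: quartiles and median, whiskers: 1.5 interquartile ranges, dots: values beyond), with TUDCA arrays in red on the left and vehicle arrays in blue on the right. The boxes of TUDCA replicates 1 and 2 sit highest and that of vehicle replicate 6 lowest, and TUDCA replicate 3 sits among the vehicle arrays.

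No member had groups that did not overlap, in either direction, against 0.800% of all probe sets with all TUDCA arrays above all vehicle arrays and 1.18% with all below. In 15 of 58 members (25.9%) all 6 TUDCA arrays lay above the vehicle mean of their number range, against 8.79% of all probe sets. A fold of at least 1.2 was estimated for 4 members (6.90%), against 3.66% of all probe sets: Rps27, Rpl27a, Rps16 and Rpl29, none of which passed the test. Standard errors were like those of other probe sets, with a median of 0.09 for the members and 0.09 for all. Of the members, 24 had a mean below 6, and they lay below the median probe set of 5.93, where array differences are compressed. Those 24 had a median difference of 0.11 and 17 above 0. The 14 members with a mean of at least 9 had differences from 0.07 to 0.25, all 14 above 0, with a median of 0.16, against a median of −0.00 and 49.1% above 0 among all 2154 probe sets of that brightness. Within the high number range 11 of these 14 were above 0, and their median was 0.10, against 0.19 within the low range.

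**Figure D3:**
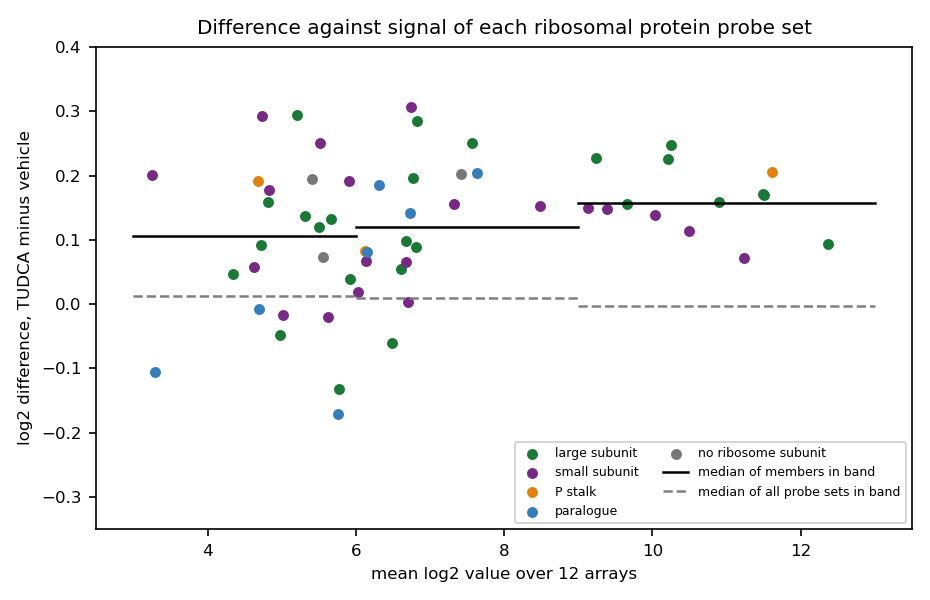
Log2 difference of each ribosomal protein probe set, TUDCA minus vehicle, against its mean log2 value over the 12 arrays, with the median of the members (solid) and of all probe sets (dashed) in 3 bands of signal. The 14 members at 9 or more all lie above 0, and the 8 members below 0 lie in the other 2 bands.

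Among the large subunit genes, 22 of 25 had a difference above 0, with a median of 0.14 and a range from −0.13 to 0.29. Rpl8 ran from 10.16 through a median of 10.35 to 10.56 under TUDCA and from 10.00 through 10.16 to 10.31 under vehicle. All TUDCA arrays lay above the vehicle mean of their range, and the groups overlapped. Rpl8 rose by a log2 difference of 0.25 ± 0.06 (SE, adjusted p = 0.0413 in limma), a fold of 1.19, and was higher by 0.26 in low-range and 0.23 in high-range arrays. The call stayed in 3 of 12 fits that left out an array, those without TUDCA replicate 6 or vehicle replicate 4 or 5, and ended in 9, with adjusted p up to 0.173 (without TUDCA replicate 1). It also ended in a fit that ignores number range (adjusted p = 0.256 in limma) and with eBayes without a trend (adjusted p = 0.0868 in limma). With replicate number as a block in place of number range the call ended (adjusted p = 0.101 in limma). It stayed with the block and number range together (adjusted p = 0.0379 in limma). With Rpl8 fitted on fewer arrays, the adjusted p was 0.194 in low-range arrays alone and 0.461 in high-range arrays alone.

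Rpl22, whose protein is dispensable for most translation but needed for αβ T cell development in mice, came next by p. It ran from 6.78 through 6.83 to 7.01 under TUDCA and from 6.59 through 6.71 to 6.79 under vehicle. The groups overlapped in a narrow band, and all 6 TUDCA arrays lay above the vehicle mean of their range. The difference was 0.20 ± 0.06 (SE, adjusted p = 0.103 in limma), with the same 0.20 within both ranges. When probe sets dimmer than the median were left out, which leaves fewer tests, the adjusted p was 0.0497.

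The highest large subunit differences belonged to Rpl27a, Rpl29 and Rpl34, none of which passed. Rpl27a ran from 5.11 through 5.30 to 5.69 under TUDCA and from 4.75 through 5.04 to 5.34 under vehicle, a difference of 0.29 ± 0.13 (SE, adjusted p = 0.319 in limma). Rpl29 ran from 6.57 through 7.04 to 7.11 under TUDCA and from 6.46 through 6.68 to 7.15 under vehicle, so the highest value was in a vehicle array. Rpl34 had a difference of 0.25 ± 0.11 (SE, adjusted p = 0.327 in limma). These 3 probe sets were higher within both number ranges, by between 0.20 and 0.33.

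Some large subunit genes had differences of opposite sign in the number ranges, without an interaction that passed after adjustment. Rpl3, which reaches from the surface towards the peptidyl transferase centre, ran from 9.81 through 10.21 to 10.79 under TUDCA and from 9.81 through 10.19 to 10.49 under vehicle, with almost the whole span shared. Its difference was 0.55 in low-range and −0.10 in high-range arrays. Rpl10a split likewise, with 0.57 in low-range and −0.12 in high-range arrays. Rpl38, which in mice is needed for translation of Hox mRNAs, was at 0.40 in low-range and −0.08 in high-range arrays. Rpl4, which lines the tunnel through which the new protein leaves, had a difference of 0.09 (95% interval −0.03 to 0.22), with 0.10 in low-range and 0.08 in high-range arrays. Rpl41, the smallest ribosomal protein, was at 0.17 (95% interval 0.03 to 0.31, adjusted p = 0.229 in limma). The large subunit genes below 0 were Rpl6 at −0.13 (95% interval −0.37 to 0.11), Rpl26 at −0.06 and Rpl30 at −0.05 ± 0.17 (SE). Rpl30, among the 3 members with the widest spread over all arrays, was at −0.32 in low-range and 0.22 in high-range arrays. Without TUDCA replicate 2 the Rpl30 difference was 0.21, and without vehicle replicate 1 it was 0.02, so its sign rests on single arrays. Rpl17, among the 3 members with the lowest signal, was at 0.05 ± 0.13 (SE). The other 8 genes not described elsewhere, Rpl9, Rpl15, Rpl19, Rpl21, Rpl27, Rpl35, Rpl37 and Rpl37a, had differences from 0.09 to 0.17. Rpl19, Rpl21, Rpl26 and Rpl37 were above 0 in low-range and below 0 in high-range arrays, and Rpl9 and Rpl17 were the reverse.

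Rpl5 and Rpl11, which form a particle with the smallest ribosomal RNA and bind Mdm2 when free, did not pass the test. Rpl5 ran from 6.40 through 6.63 to 6.76 under TUDCA and from 6.48 through 6.60 to 6.74 under vehicle, and Rpl11 from 5.79 through 5.9 to 6.09 under TUDCA and from 5.67 through 5.89 to 6.25 under vehicle. The groups overlapped over nearly their whole span. The differences were 0.05 (95% interval −0.09 to 0.20) for Rpl5 and 0.04 (95% interval −0.18 to 0.26) for Rpl11, with adjusted p = 0.79 and 0.914 in limma. Rpl11 was at −0.17 in low-range and 0.25 in high-range arrays, and Rpl5 at 0.08 and 0.03. On the fixed list of 11 genes of the p53 checkpoint, 10 were measured and none passed in limma (1 was higher at an unadjusted p of 0.05), with a median difference of 0.01. That median was −0.06 in low-range arrays (2 of 10 above 0) and 0.05 in high-range arrays (7 of 10 above 0). Mdm2 itself was at 0.11 ± 0.07 (SE, adjusted p = 0.529 in limma), and the p53 target Cdkn1a at 0.27 ± 0.12 (SE, adjusted p = 0.346 in limma).

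Among the 20 small subunit genes, 18 had a difference above 0, with a median of 0.14 and a range from −0.02 to 0.31. None passed in limma, and 4 were higher at an unadjusted p of 0.05. Rps27 had the highest difference of all members. It ran from 6.57 through 6.93 to 7.18 under TUDCA and from 6.28 through 6.57 to 6.83 under vehicle, so TUDCA replicate 2, the lowest of its group, lay among the vehicle arrays. The difference was 0.31 ± 0.11 (SE, adjusted p = 0.183 in limma). Rps16 ran from 4.49 through 4.87 to 5.33 under TUDCA and from 3.93 through 4.66 to 4.89 under vehicle, and its 95% interval, −0.11 to 0.69, was the widest of all members. Rps28 was at 0.25 ± 0.09 (SE, adjusted p = 0.19 in limma).

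Rps9 and Rps3 varied little between arrays. Rps9 ran from 9.14 through 9.19 to 9.28 under TUDCA and from 9.0 through 9.05 to 9.19 under vehicle, a difference of 0.15 ± 0.05 (SE, adjusted p = 0.18 in limma). Rps3, a protein at the entry of the mRNA channel, ran from 9.91 through 10.11 to 10.19 under TUDCA and from 9.84 through 9.98 to 10.13 under vehicle, a difference of 0.14 ± 0.06 (SE, adjusted p = 0.302 in limma). In both genes all 6 TUDCA arrays lay above the vehicle mean of their range, and the groups overlapped. Rpsa, also known as the laminin receptor, was at 0.16 (95% interval −0.02 to 0.33). Of the genes linked to ribosome disease in people, Rps19 (Diamond-Blackfan anaemia) was at 0.15, Rps14 (the deletion 5q syndrome) at 0.19, and Rps26 (Diamond-Blackfan anaemia), whose signal lay near the floor of the arrays, at 0.20 ± 0.12 (SE). In low-range and high-range arrays Rps19 was at 0.29 and 0.01, Rps14 at 0.09 and 0.30, and Rps26 at −0.02 and 0.42. Rps20 and Rps29 were the small subunit genes below 0, each at −0.02. The other 8 genes not described elsewhere, Rps3a1, Rps7, Rps10, Rps12, Rps15, Rps23, Rps24 and Rps25, had differences from 0.00 to 0.18. As in the large subunit, signs differed between ranges for some genes. Rps10, Rps20, Rps23, Rps24 and Rps29 were above 0 in low-range and below 0 in high-range arrays, and Rps3a1 was the reverse.

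The P stalk is a lateral arm of the large subunit that recruits the GTPase factors of translation. Its 3 genes were above 0, none passed in limma, and 1 was higher at an unadjusted p of 0.05. Rplp1 ran from 11.57 through 11.71 to 11.78 under TUDCA and from 11.36 through 11.50 to 11.78 under vehicle, a difference of 0.20 ± 0.07 (SE, adjusted p = 0.161 in limma), with all 6 TUDCA arrays above the vehicle mean of their range. Rplp2 was at 0.19 ± 0.12 (SE) and Rplp0, the base of the stalk, at 0.08 ± 0.11 (SE). Rplp0 is often used to normalise PCR assays, and its 95% interval here ran from −0.16 to 0.33.

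The paralogues were mixed, with 4 of 7 above 0 and a median difference of 0.08. Rps27l, a target of p53 that differs from Rps27 at few positions, ran from 7.62 through 7.75 to 7.81 under TUDCA and from 7.40 through 7.51 to 7.69 under vehicle. Only TUDCA replicate 3, the lowest of its group, lay below the highest vehicle array. The Rps27l difference was 0.20 ± 0.07 (SE, adjusted p = 0.145 in limma), beside the 0.31 of Rps27. Rpl22l1, which can take the place of Rpl22 in mice, was at 0.14 ± 0.08 (SE, adjusted p = 0.487 in limma), beside the 0.20 of Rpl22. Rpl7l1, a nucleolar relative of Rpl7, was at 0.19, and Rpl7 at 0.14. Rps4l, which RefSeq lists as a transcribed pseudogene, was at 0.08 and Rps4x at 0.11. How far probes of such relatives read each other's transcripts was not tested.

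The 3 paralogues below 0 are known mainly from other tissues. Rpl39l, a form of spermatogenic cells, ran from 5.57 through 5.70 to 5.82 under TUDCA and from 5.70 through 5.80 to 6.02 under vehicle. All 6 TUDCA arrays lay below the vehicle mean of their range, and the groups overlapped. The Rpl39l difference was −0.17 ± 0.08 (SE, adjusted p = 0.348 in limma), −0.04 in low-range and −0.30 in high-range arrays. Rpl10l, which replaces Rpl10 during male meiosis in mice, lay between 3.13 and 3.39 under TUDCA and between 3.25 and 3.48 under vehicle, near the lower end of the arrays. Rpl3l, the form of heart and skeletal muscle, was at −0.01 (95% interval −0.16 to 0.14). Of the 3 genes that are members by symbol alone, Rps19bp1 was at 0.20, Rpl32l at 0.19 and Rps23rg1 at 0.07, and without them the member median was 0.14 and Rpl8 was still the member that rose.

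**Figure D4:**
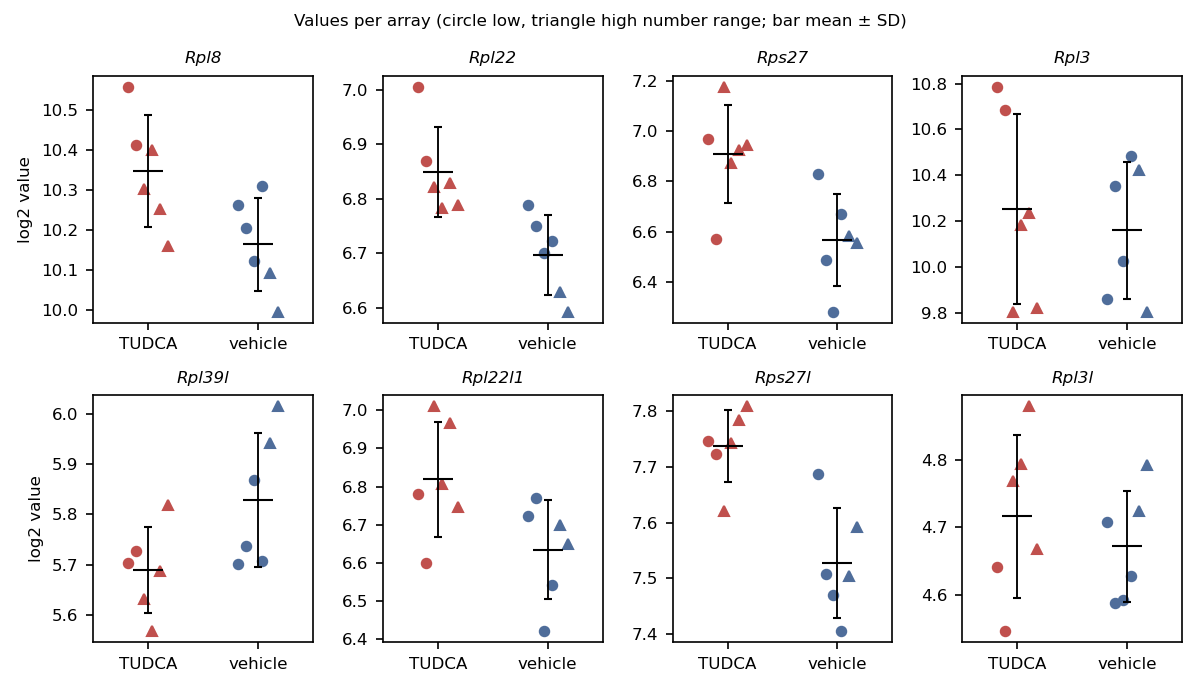
Log2 values per array of Rpl8, Rpl22, Rps27 and Rpl3 (top) and of Rpl39l, Rpl22l1, Rps27l and Rpl3l (bottom), TUDCA on the left and vehicle on the right in each panel, with the mean and SD of 6 arrays; circles are low-range and triangles high-range samples, and each axis has its own span. The groups overlap in every panel, and in Rpl3 the TUDCA arrays split by number range.

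Lists of other genes of ribosome production and translation had medians between 0.08 and 0.16. Over all probe sets, 53.3% were above 0, 7.24% were higher at an unadjusted p of 0.05 and 1.00% rose after adjustment. Of 79 mitochondrial ribosomal protein genes on a fixed list, 71 were measured, with a median difference of 0.16 (0.19 in low-range and 0.12 in high-range arrays), 66 above 0 and 27 higher at an unadjusted p of 0.05. Mrpl54, a large subunit protein of the mitochondrial ribosome, averaged 9.09 ± 0.25 under TUDCA and 8.76 ± 0.06 under vehicle (SD, n = 6 each). It rose by 0.39 ± 0.09 (SE, adjusted p = 0.0395 in limma), and no other passed. Of 92 factors of ribosome biogenesis, 86 were measured, with a median of 0.14 (0.21 in low-range and 0.05 in high-range arrays), 75 above 0 and 22 higher at an unadjusted p of 0.05. Nop10, a part of the particle that makes pseudouridines in ribosomal RNA, rose by 0.32 ± 0.06 (SE, adjusted p = 0.0066 in limma), and no other passed. Chaperones and importers of ribosomal proteins (11 of 11 measured, median 0.14) had no gene past the threshold in limma and 1 higher at an unadjusted p of 0.05. The same held for RNA polymerase I genes (17 of 19, median 0.08, 3 higher unadjusted), translation factors and other TOP mRNAs (20 of 24, median 0.09, 5 higher unadjusted) and further translation factors (31 of 36, median 0.10, 6 higher unadjusted), of which none passed. Medians in low-range and high-range arrays were 0.17 and 0.09 for the chaperones and importers, and 0.15 and 0.02 for RNA polymerase I. They were 0.15 and 0.01 for the TOP list, and 0.19 and 0.02 for the further translation factors, beside 0.01 and 0.01 for all probe sets. Of the parts of the ribosome outside the symbol rule 1 of 3 was measured, Fau, at 0.12 ± 0.12 (SE).

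Among regulators of TOP mRNAs and mTORC1, 43 of 48 were measured, with a median of 0.02 (0.08 in low-range and 0.02 in high-range arrays) and 25 above 0. Differences ran from −0.55 to 0.34. After adjustment none rose and 2 fell, against 1.00% and 1.52% of all probe sets. At an unadjusted p of 0.05 in limma, 3 were higher and 5 lower, against 7.24% and 6.84% of all probe sets. Max, the partner of Myc in binding DNA, fell by 0.33 (SE 0.07, adjusted p = 0.0176 in limma), with 10.00 ± 0.09 under TUDCA and 10.33 ± 0.11 under vehicle (SD, n = 6 each). Rps6ka5, a nuclear kinase whose name recalls the ribosomal protein S6 kinases, fell by 0.36 (SE 0.09, adjusted p = 0.0437 in limma). Ddit4, an inhibitor of mTORC1, was at 0.34 ± 0.10 (SE, adjusted p = 0.0957 in limma). These lists were compared by their counts and medians only.

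Markers of several cell types differed between the same arrays. For comparison with the counts below, 1.00% of all probe sets rose and 1.52% fell after adjustment in limma. At an unadjusted p of 0.05 in limma, 7.24% were higher and 6.84% lower. None of 24 measured genes of cycling cells passed in limma (3 were higher at an unadjusted p of 0.05), and all 24 had a difference above 0, with a median of 0.13 (0.21 in low-range and 0.05 in high-range arrays). Their mean per array lay between 7.86 and 8.33 under TUDCA and between 7.81 and 8.26 under vehicle. Goblet cell markers had a median of 0.28, and 3 of 10 rose, Spink4, Spdef and Agr2, with means per array from 10.56 to 10.81 under TUDCA and from 9.97 to 10.63 under vehicle. Markers of T and NK cells had a median of −0.35, 6 of 15 fell (by p Gzma, Cd8b1, Cd3e and Cd8a were the first) and none rose. Their means per array ran from 5.71 to 6.97 under TUDCA and from 6.74 to 7.42 under vehicle. The 5.71 was TUDCA replicate 2 alone, and the next lowest TUDCA array, replicate 1, was at 6.47. Markers of absorptive enterocytes had a median of −0.11, and 4 of 19 fell (Apob, Anpep, Mep1a and Slc15a1), with means from 10.69 to 10.91 under TUDCA and from 10.83 to 11.08 under vehicle. Of these 19, 6 had a difference above 0. At an unadjusted p of 0.05, 1 was higher and 9 were lower in limma. Smooth muscle markers had a median of −0.11 and none of 10 passed in limma (2 were lower at an unadjusted p of 0.05). Macrophage and dendritic cell markers had a median of −0.15 with 3 of 16 above 0, and means per array from 7.14 to 7.56 under TUDCA and from 7.42 to 7.77 under vehicle. None of these 16 passed in limma, with 1 higher and 2 lower at an unadjusted p of 0.05. Endothelial markers had a median of −0.11 with 1 of 9 above 0, means from 6.19 to 6.72 under TUDCA and from 6.45 to 6.86 under vehicle, and none past either threshold. Of 11 neutrophil markers Ly6g alone rose, with a list median of 0.05. Medians in low-range and high-range arrays were −0.67 and −0.25 for T and NK cells, and −0.30 and −0.04 for smooth muscle. They were −0.24 and −0.02 for macrophages and dendritic cells, and −0.17 and −0.07 for absorptive enterocytes. For endothelial markers they were −0.10 and −0.08, and for goblet cells 0.34 and 0.23. Values of an array have no true zero, so none of these markers can be called absent. The part of these shifts in the ribosomal protein values was not tested.

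**Figure D5:**
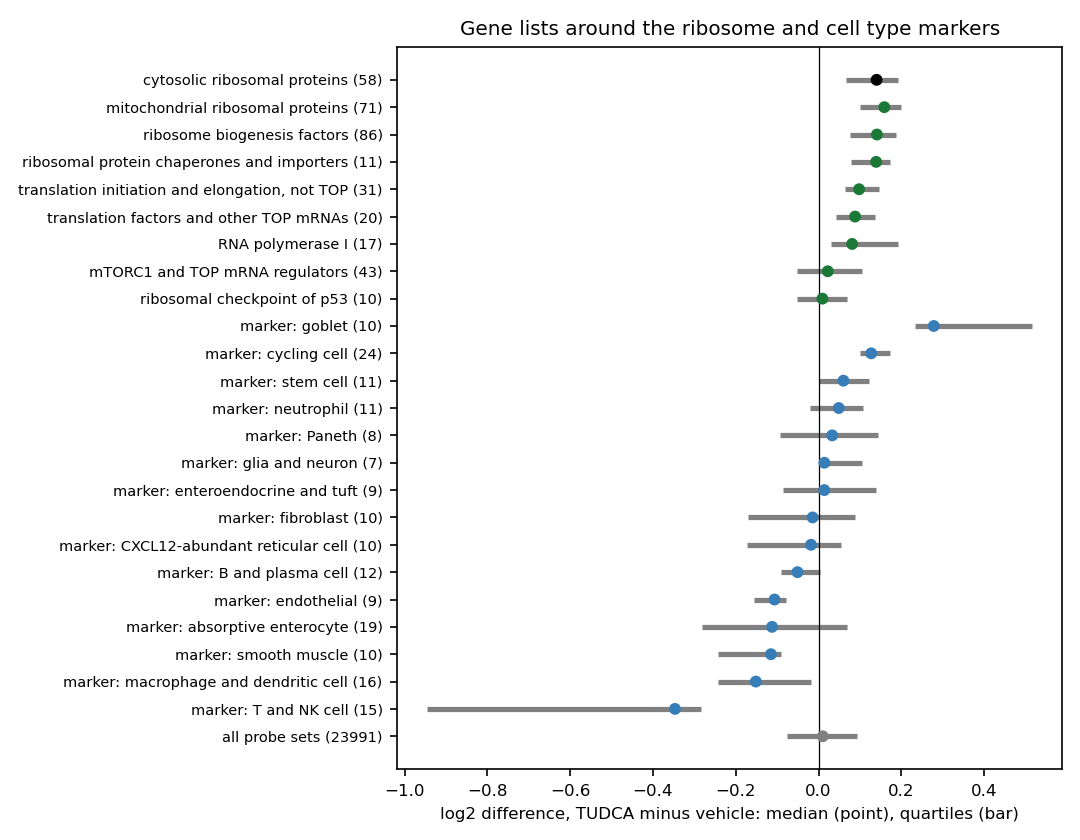
Median (point) and quartiles (bar) of the log2 differences, TUDCA minus vehicle, of the cytosolic ribosomal proteins (black), lists of ribosome production and translation (green), cell type markers (blue) and all probe sets (grey), with the number of measured genes in brackets. The ribosomal protein median of 0.14 lies near the 0.16 of mitochondrial ribosomal proteins and the 0.14 of biogenesis factors, T and NK cell markers lie lowest at −0.35, and goblet cell markers highest at 0.28.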

How the data were processed

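The deposited table holds 1 log2 value per probe set and array, made by the authors with the oligo package and RMA (background correction, quantile normalisation and probe summarisation), per the submitters' processing notes, which give no versions. Because RMA equalises the arrays, a change common to all transcripts is hidden. Of 23991 probe sets, 21557 name 1 gene in the platform annotation, 787 several and 1647 none, and all entered the fit. All 58 member symbols matched RefSeq by gene ID.

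The fit used limma 3.58.1 under R 4.3.3, with eBayes on an intensity trend, with treatment and number range as terms; tests were two-sided and p-values adjusted by Benjamini-Hochberg over all probe sets. The script was tested on simulated data. For a listed gene with several probe sets the one of the highest mean was used. Genes were named if they passed the threshold, held the ends of difference, level or spread, were paralogues, or stood on a fixed set; of lists, up to 4 that passed, by p. Rps9, Rpl10a, Ddit4 and Mdm2 with Cdkn1a were added after their values were seen, as were the members given only by a range. Members and lists were chosen with earlier results of these data known. The number of arrays limits the precision. The alternatives were no number range, a replicate block with and without it, each range alone, removal of dim probe sets, renewed quantile normalisation, centring, eBayes without a trend or robust, weighting of arrays, a single probe set for each gene, an adjusted p of 0.1, and omission of each array.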

Additional observations from a re-analysis of the deposited data

Results flagged for a closer look

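In 118 groups of 6 arrays (the members in each treatment, and their mean), 4 held a single array that stood apart from the rest of its group by Dixon's criterion, and chance gives about 1 in 20. Rps29 in TUDCA replicate 3 was at 5.28, against 5.65 to 5.81 on the other TUDCA arrays. Rps20 in TUDCA replicate 2 was at 5.18, against 4.92 to 5.01 on the other TUDCA arrays. Rpl26 in vehicle replicate 6 was at 6.80, against 6.36 to 6.49 on the other vehicle arrays. Rps12 in vehicle replicate 4 was at 10.91, against 11.21 to 11.33 on the other vehicle arrays.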

How the results depend on the processing

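The count of ribosomal protein probe sets that rose was 1 in the fit reported and 0 without the number range, with the replicate block, within the low or the high number range alone, and with eBayes without a trend. It was 2 (Rpl8 and Rpl22) when probe sets below the median were left out, and between 0 and 1 when single arrays were left out. The count that fell was 0 in every alternative. The member median was 0.0919 without the number range and 0.0919 with the replicate block, and between 0.12 and 0.16 when single arrays were left out; in the other alternatives it moved by less than the spread between arrays (SD 0.0474). The replicate numbers shared by the groups were not taken as pairs, because no label says that they mark a shared source. Of 6 same-numbered pairs 3, not all, had a correlation of deviations over 0.1 (from −0.06 to 0.26). Among 6 TUDCA arrays, 4 correlated best with their own number. Number range was not removed from these deviations. Replicates 1 and 2 are low-range and replicates 5 and 6 high-range in both groups, so shared number and shared range cannot be told apart there. For Rpl8 the adjusted p was 0.101 with the replicate block and 0.0379 with the replicate block and number range together. The replicate block replaced number range, and with it 213 of all probe sets rose and 409 fell, against 180 and 309 with neither term. With number range kept, the counts were 259 and 386 with the block and 241 and 364 without it. In 24 alternative fits no called member changed direction, and 54 of 1368 values of members changed sign without passing, from 23 genes. The count of all probe sets that rose was 6 and of those that fell 3 within the high number range alone, 436 and 526 with array weights, and 429 and 541 at a threshold of 0.1. It was 91 and 151 without TUDCA replicate 1, 107 and 189 without TUDCA replicate 2, 147 and 240 without vehicle replicate 6, and 157 rose without vehicle replicate 3, with a number within 2 of that without vehicle replicate 2. Restrictions chosen after seeing the data gave a median of 0.14 without the 3 genes of symbol alone and 0.16 for members at 9 or more. The causes were not tested. Signal limits what can be seen for the 24 members below 6.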
